A study of Homo sapiens with 27 samples.

Results

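The Eph receptors and ephrins described here are 10 genes, and 8 of them are among the 18701 gene symbols with a count in 6 bulk RNA libraries. They are the receptors EPHA2, EPHA3, EPHA4, EPHA7, EPHB2, EPHB3 and EPHB4 and the ligands EFNA1, EFNB1 and EFNB2. The set was chosen on a measured value of these data, the higher EPHA4 count in the comparison below. The values of the 10 genes in that comparison are therefore given as a description, with no p-value printed. Where calls of EPHA4 at a threshold are mentioned below, nothing is read from them.

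The libraries were made from RM82, a cell line grown from an Ewing sarcoma, a tumor of bone and soft tissue driven by a fusion of EWSR1 with an ETS gene. In the first group, 3 libraries carry the treatment label CLK1, which the treatment protocol and the study's methods give as SGC-CLK-1, the name used below. SGC-CLK-1 is an inhibitor of the CDC-like kinases, which phosphorylate splicing factors. In the second, 3 libraries are labelled DMSO, the solvent, as the control. Every direction below rests on these labels, which no value here checks, and all would turn if the labels were exchanged. Both treatments lasted 24 hours, and the dose of the inhibitor is not given in the sources used here. All 6 libraries come from 1 cell line, so no other genetic background is represented. Full-length cDNA carrying a unique molecular identifier (UMI), a tag that marks each captured molecule, was sequenced on the Oxford Nanopore PromethION, and the deposited value is the UMI count per transcript.

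The total UMI counts were 666702, 362826 and 373004 in SGC-CLK-1 replicates 1, 2 and 3 and 416352, 523456 and 372876 in DMSO replicates 1, 2 and 3. At this depth, 3 counts correspond to between 4.50 and 8.27 CPM (the count divided by the library total and multiplied by 1000000) in a single library. The study states in general that its experiments were repeated independently, but the labels do not say that these replicates were separate cultures, so the spread between them, and any p-value below, may be technical.

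Eph receptors form a large family of receptor tyrosine kinases, and their ligands, the ephrins, are held on the surface of neighboring cells. A-class ephrins are attached to the membrane by a lipid anchor, whereas B-class ephrins cross it and have a cytoplasmic tail. Binding needs contact between cells and can signal into the cell with the receptor (forward signaling) and into the cell with the ligand (reverse signaling), mostly through Src-family kinases, adaptors and small GTPases that act on actin. The family is known for guiding axons and setting tissue boundaries, and its members are often altered in tumors.

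As a check of the cell type, markers of Ewing sarcoma were examined. Of 12 markers, 10 had counts, and FLI1 and NKX2-2, a fusion partner and a transcription factor used in diagnosis, were at 0. The summed CPM of the list was 1707, 1833 and 1780 in the SGC-CLK-1 libraries and 1732, 1595 and 2030 in the DMSO libraries, and the groups overlapped. Within the list, CCND1 was lower in every SGC-CLK-1 library than in any DMSO library (451, 499 and 488 against 677, 502 and 684 CPM), and KDSR was higher in every one (352, 430 and 346 against 216, 313 and 311 CPM). The most abundant marker over all libraries was the cyclin gene CCND1, at 479 ± 24.8 CPM with SGC-CLK-1 and 621 ± 103 CPM with DMSO (SD, n = 3 each), followed by BCL11B at 520 and 495 CPM. CD99, the surface antigen of Ewing sarcoma, was counted in every library, at 93.7 to 174 CPM. ERG, another ETS gene, was at 66.1 to 182 CPM. Other human lines appear elsewhere in the study, and 4 of 8 plasma cell markers (for JJN3) and 3 of 8 T cell markers (for Jurkat) had counts. SDC1, TNFRSF17, IRF4 and MZB1 of the plasma cell list were at 0, and the summed CPM of that list, most of it CD38, was 81.0 ± 1.36 (SD, n = 3) with SGC-CLK-1 and 75.4 ± 14.8 (SD, n = 3) with DMSO. The other 3 counted markers of that list had counts only with SGC-CLK-1, which were 10, 1 and 0 for XBP1, 0, 0 and 4 for PRDM1 and 0, 0 and 1 for JCHAIN, against 0 in every DMSO library. CD3E, CD3D, CD2, CD28 and TRBC2 of the T cell list were at 0. Its summed CPM, led by PTPRC, was 25.3 ± 12.02 (SD, n = 3) and 27.2 ± 6.31 (SD, n = 3). Within that list, PTPRC averaged 21.6 CPM with SGC-CLK-1 and 11.9 CPM with DMSO, and CD3G, named after its values were seen, had 2, 1 and 1 counts against 6, 8 and 6. The part of these differences in the results below was not tested.

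The annotation used here (GENCODE release 44, GRCh38, the same build as the authors' hg38) lists 69 transcripts of the 10 genes, and 32 of them had at least 1 count. Of these, 3 passed the filter on low counts, and all 3 belong to EPHA4, a receptor that binds both A- and B-class ephrins. They differ at both ends. The sequences below are shown because they mark the place where the annotated coding sequences part. They are read from the reference genome on the minus strand, 5′ to 3′. The small letters start with the last 30 bases, chr2:221426464-221426493, of the second-last coding exon of ENST00000281821 and ENST00000409938. In the first line the capitals are the first 30 bases of the next exon, chr2:221426113-221426142. In the second line 1 more base is read before the capitals, which are the stop codon at chr2:221426460-221426462.

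ENST00000281821 and ENST00000409938: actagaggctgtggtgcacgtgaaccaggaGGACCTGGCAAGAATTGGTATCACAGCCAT

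ENST00000409854: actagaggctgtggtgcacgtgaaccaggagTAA

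EPHA4 (ENSG00000116106) lies on chromosome 2 from 221418027 to 221574202, on the minus strand. ENST00000281821 has 18 exons, 6362 bases and an open reading frame of 986 amino acids. ENST00000409938 encodes the same 986 amino acids from 18 exons and 3363 bases, with 242 bases of its own at the 5′ end, where it starts upstream of the other pair at 221574202. ENST00000409854 has 17 exons and 3454 bases. Its last coding exon, which is the second-last in the other pair, runs on for 29 bases. There the stop codon shown above ends the reading frame at 949 amino acids, 37 fewer than in the other pair. The C-terminal end that is changed follows the kinase domain. Altogether 3121 exonic bases lie in all 3 transcripts, which is 49.1% of ENST00000281821, 90.4% of ENST00000409854 and 92.8% of ENST00000409938, and 14 exons are identical in all 3.

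**Figure D1:**
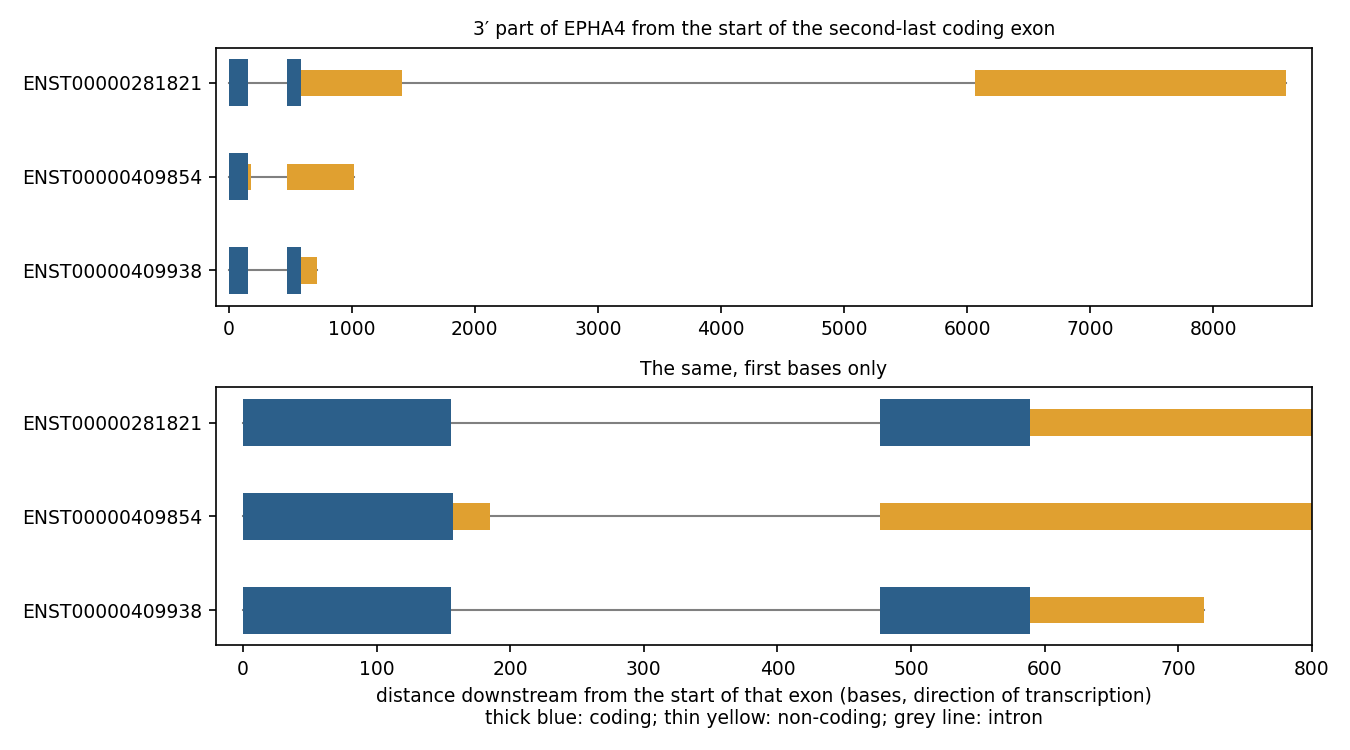
Annotated 3′ part of the EPHA4 transcripts that passed the filter, drawn to scale, whole above and enlarged below. Thick bars are coding, thin bars non-coding and lines introns. Distance is in bases downstream of the start of the second-last coding exon of ENST00000281821 and ENST00000409938. ENST00000409854 carries 29 extra bases on that exon and stops there, and ENST00000281821 continues into a long non-coding end that the other pair lacks.

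ENST00000281821 was the most abundant transcript of EPHA4. Its UMI counts were 25, 18 and 16 in the SGC-CLK-1 libraries and 2, 7 and 3 in the DMSO libraries. In CPM these are 37.5, 49.6 and 42.9 against 4.80, 13.4 and 8.05. Every SGC-CLK-1 library was above every DMSO library, and the means were 43.3 ± 6.07 and 8.74 ± 4.33 CPM (SD, n = 3 each). The fitted log2 fold change was 2.20 (SE 0.433). Over the pooled counts, 59 of 1402532 against 12 of 1312684, the rate was 4.60 times as high with SGC-CLK-1. Its exact 95% interval of 2.45 to 9.41 covers counting error only and leaves out the spread between libraries. The set was chosen on this difference, so the interval is a description and no test of it. In bulk libraries, fewer cells with a transcript and less of it per cell cannot be told apart.

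The other pair of transcripts gave nearly the same counts. ENST00000409854, the form with the earlier stop codon, had 19, 16 and 16 UMIs with SGC-CLK-1 and 1, 6 and 2 with DMSO, a log2 fold change of 2.41 (SE 0.494). ENST00000409938, with the full reading frame and a short 3′ end, had 18, 17 and 16 against 1, 6 and 2, a log2 fold change of 2.41 (SE 0.499). In all 3 transcripts the groups did not overlap and DMSO replicate 2 was the highest control. Without that library, the log2 fold changes were 2.70 for ENST00000281821, 3.20 for ENST00000409854 and 3.21 for ENST00000409938.

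**Figure D2:**
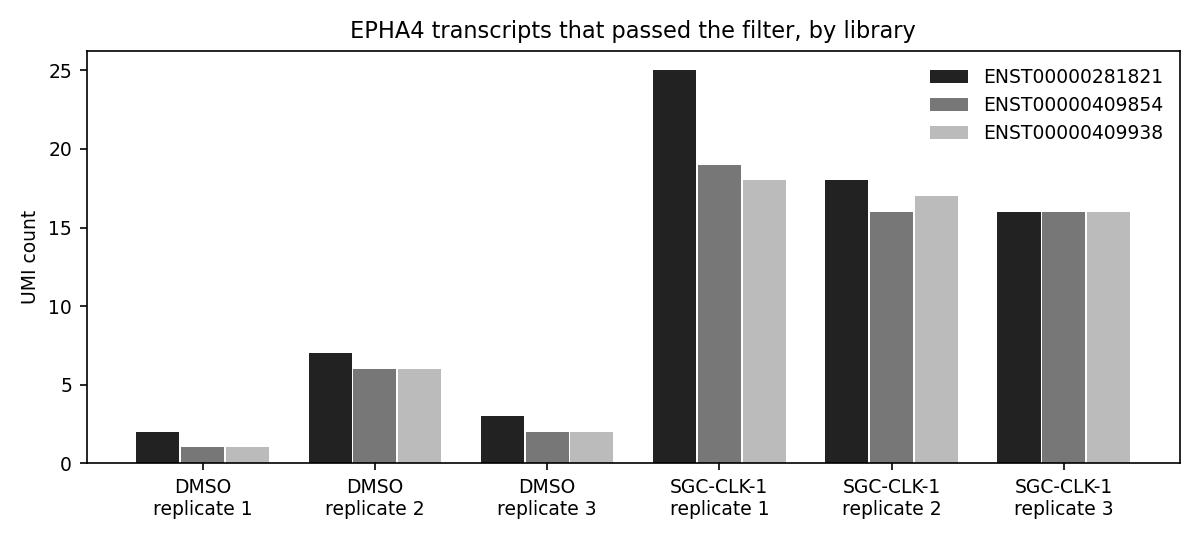
UMI counts (vertical axis) of the EPHA4 transcripts that passed the filter in each of the 6 libraries (bars, 1 per transcript). The SGC-CLK-1 libraries hold 16 to 25 counts of each and the DMSO libraries 1 to 7, and within a library the transcripts are close to each other.

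These 3 counts are not independent. Up to 3 secondary alignments were kept for a read, so 1 molecule of EPHA4 can be counted on several of its transcripts, and the shared exons leave little to separate ENST00000409854 from ENST00000409938. The share of the summed EPHA4 counts on ENST00000281821 was 34.2%, 31.0% and 32.0% with SGC-CLK-1 and 33.3%, 29.2% and 37.5% with DMSO. The SGC-CLK-1 values lay within the range of the DMSO values, and the means were 32.4% ± 1.65 and 33.3% ± 4.17 (SD, n = 3 each). Over the 3 tested transcripts alone, the difference of these means was −6.92 percentage points in place of −0.906. The shares of ENST00000409854 were 26.03%, 27.6% and 32.0% with SGC-CLK-1 and 16.7%, 25.0% and 25.0% with DMSO, and did not overlap. Those of ENST00000409938 were 24.7%, 29.3% and 32.0% against 16.7%, 25.0% and 25.0%, and overlapped. The DMSO shares of this pair rest on 1 to 6 counts per library, and no difference in share was tested.

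The other 7 EPHA4 transcripts with a count stayed below the filter, and the highest count of any of them in a library was 5. That count belongs to ENST00000469354, which has no annotated coding sequence and covers the 3′ end of the gene (5, 2 and 0 with SGC-CLK-1, 1 in each DMSO library). The retained-intron transcript ENST00000495693 had 2, 3 and 0 against 0, 2 and 0. ENST00000424339, annotated as a target of nonsense-mediated decay, had 0, 1 and 2 against 0, 1 and 0. Inclusion of an intron or of a decay-inducing exon in EPHA4 is therefore too low to judge in either group.

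Summed over its 10 listed transcripts, EPHA4 had 73, 58 and 50 counts with SGC-CLK-1 and 6, 24 and 8 with DMSO. In CPM these are 109, 160 and 134 against 14.4, 45.8 and 21.5, with means of 134 ± 25.2 and 27.2 ± 16.5 (SD, n = 3 each). The groups did not overlap, and the log2 fold change of the sum was 2.16 (SE 0.383). With secondary alignments kept in the mapping, the sum can exceed the number of molecules, and the single most abundant transcript is the more cautious measure of the level. DMSO replicate 2 stood above the other controls. Without it the log2 fold change of the sum was 2.80.

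**Figure D3:**
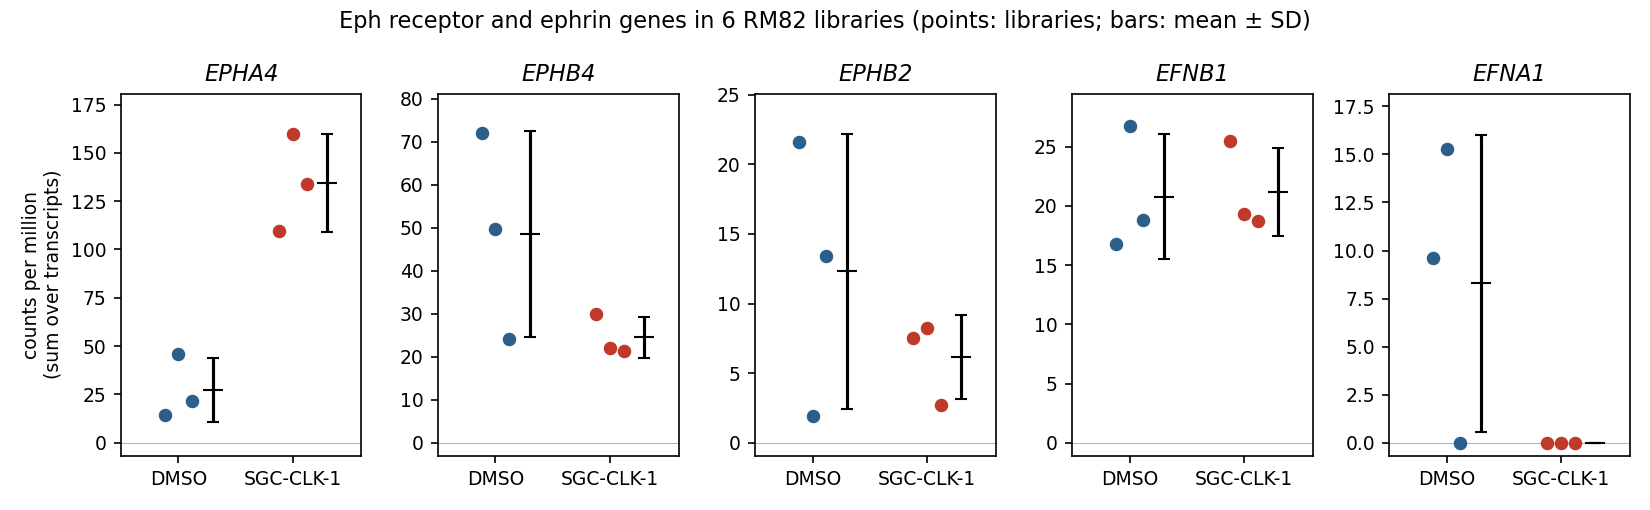
CPM summed over transcripts (vertical axes, each with its own scale) of the Eph receptors and ephrins with more than a few counts, in 3 DMSO and 3 SGC-CLK-1 libraries (points), with the mean and SD (bars). Only the EPHA4 panel separates the groups with counts in every library, at 109 to 160 against 14.4 to 45.8 CPM. EPHA4 is the gene on which the set was chosen, and EPHB4, EPHB2 and EFNB1 overlap.

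For the background of these values, edgeR's quasi-likelihood test was run over 7840 transcripts and 6344 genes. Among transcripts, 1.85% were higher with SGC-CLK-1 at an adjusted p under 0.05, and the 3 EPHA4 transcripts were among them. In 11.7% of the transcripts, the SGC-CLK-1 libraries were all above the DMSO libraries after TMM scaling, as in the same 3. At the gene level 0.315% passed the threshold in either direction, 12 higher and 8 lower, and EPHA4 was one of the 12. The balance depends on the method, with 40 higher and 72 lower of the same genes by DESeq2. Because EPHA4 was selected on this comparison, nothing is read from these calls. The 3 transcripts passed the filter only through the SGC-CLK-1 libraries, where they were high. Leaving out any one library other than DMSO replicate 2 ended the call of the gene sum.

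EPHB4 (chromosome 7, 100802565 to 100827523, minus strand) is the receptor of ephrin-B2 and is known from blood vessel growth. It was the only other member whose summed count passed the filter. The sums were 20, 8 and 8 counts with SGC-CLK-1 and 30, 26 and 9 with DMSO, or 30.0, 22.0 and 21.4 against 72.1, 49.7 and 24.1 CPM. The lowest DMSO library lay inside the SGC-CLK-1 range, so the groups overlapped. The means were 24.5 ± 4.77 and 48.6 ± 23.98 CPM (SD, n = 3 each), and the log2 fold change was −1.02 (SE 0.452).

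The EPHB4 sum rests on few molecules. No single EPHB4 transcript passed the filter, although 9 were listed. The most abundant, ENST00000358173 (17 exons, 4353 bases, 987 amino acids), had 6, 2 and 2 counts against 8, 6 and 2. Nearly the same counts appeared on ENST00000616502 (6, 2 and 1 against 8, 5 and 2) and on the retained-intron transcript ENST00000487222 (6, 2 and 2 against 6, 6 and 2). All bases of ENST00000616502 and 75.2% of those of ENST00000487222 lie within exons of ENST00000358173. By ENST00000358173 alone, the pooled counts were 10 and 16, and the ratio of rates was 0.585 with an exact 95% interval of 0.237 to 1.37 for counting error.

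EFNB1 (chromosome X, 68829021 to 68842160, plus strand) encodes ephrin-B1, a transmembrane ligand of EphB receptors and of EPHA4. Its 1 listed transcript, ENST00000204961, had 17, 7 and 7 counts with SGC-CLK-1 and 7, 14 and 7 with DMSO. In CPM the values were 25.5, 19.3 and 18.8 against 16.8, 26.7 and 18.8, and the groups overlapped throughout. The means were 21.2 ± 3.74 and 20.8 ± 5.26 CPM (SD, n = 3 each). The ratio of the pooled rates was 1.04, with an exact 95% interval of 0.601 to 1.79. EFNB1 did not pass the filter, and the interval, from 31 and 28 pooled counts, leaves out the spread between libraries.

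EPHB2, a receptor of B-class ephrins, had 5 listed transcripts and summed counts of 5, 3 and 1 with SGC-CLK-1 against 9, 1 and 5 with DMSO. DMSO replicate 2 was as low as the lowest SGC-CLK-1 library in counts. On ENST00000400191, the most abundant transcript, the counts were 5, 0 and 0 against 3, 1 and 3, a ratio of 0.669 with an exact 95% interval of 0.167 to 2.45. The interval holds both a large fall and more than a doubling of the rate, so EPHB2 is too low to judge.

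EFNA1, a lipid-anchored ligand of EphA receptors, was at 0 in all 3 SGC-CLK-1 libraries and in DMSO replicate 3. The counts of ENST00000368407, its most abundant transcript, were 2 and 4 in DMSO replicates 1 and 2. The exact 95% interval of the ratio of pooled rates, SGC-CLK-1 over DMSO, ran from 0 to 0.795 and covers counting error only. All 6 counts come from 2 libraries, and the other pair of EFNA1 transcripts listed can hold the same molecules, so EFNA1 too is below the level at which the replicates could be compared.

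**Figure D4:**
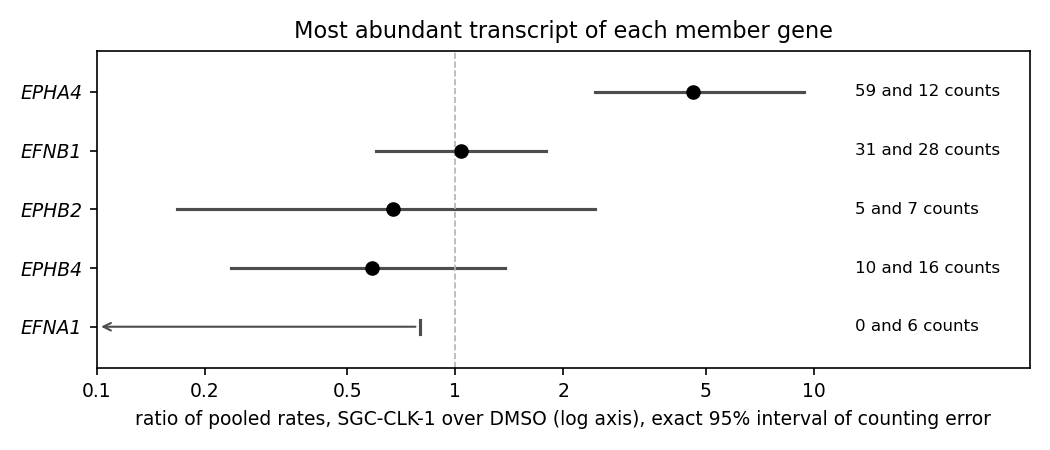
Ratio of the pooled rates, SGC-CLK-1 over DMSO (horizontal log axis), for the most abundant transcript of each member with more than 1 count per group or at 0 in 1 group, with exact 95% intervals of counting error and the pooled counts at the right. The interval runs from 0.601 to 1.79 for EFNB1 with 31 and 28 counts and from 0.167 to 2.45 for EPHB2 with 5 and 7, for EFNA1 only the upper end, 0.795, can be drawn, and EPHA4, at 4.60, is the gene on which the set was chosen.

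The remaining members were at or near 0. EPHA7, an EphA receptor of the developing nervous system, had 1 count in SGC-CLK-1 replicate 2 and 1 in DMSO replicate 2. EPHB3, a further B-class receptor, had 1 count in replicate 3 of each group. EFNB2, the transmembrane ligand of EPHB4, had 1 count on each of 2 transcripts in SGC-CLK-1 replicate 3 and the same in DMSO replicate 2. EPHA2, a receptor studied in many carcinomas, and EPHA3, which binds A-class ephrins, were not listed in any library. Of the transcripts listed, 92.3% matched the annotation, and counts under an identifier that it does not hold would not appear here. Within the matched transcripts, a count of 0 allows up to 2.14 CPM over the SGC-CLK-1 group and 2.29 CPM over the DMSO group, for counting error. In total, 8 of the 10 members did not pass the filter, and 2 did. By this rule the 8 are taken as too low to judge. EPHB4 passed only as a sum over transcripts that can hold the same molecules, with 10 and 16 pooled counts on its most abundant one. EFNB1, with 31 and 28 on its single transcript, did not pass.

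For levels between genes, the most abundant transcript of each was divided by its annotated length. Reads here start at the poly(A) tail, and a UMI is meant to mark 1 molecule of any length. This division therefore penalizes long transcripts, and the order depends on it. On the scale of CPM per kilobase, the mean levels with SGC-CLK-1 were 6.81 ± 0.954 for EPHA4, 6.41 ± 1.13 for EFNB1, 1.52 ± 0.473 for EPHB4 and 0.231 ± 0.400 for EPHB2 (SD, n = 3 each). EPHA4 and EFNB1 differed by less than their spread on this scale, whereas their undivided levels were 43.3 ± 6.07 and 21.2 ± 3.74 CPM (SD, n = 3 each). With DMSO the mean levels per kilobase were 6.29 ± 1.59 for EFNB1, 2.76 ± 1.59 for EPHB4, 2.67 ± 2.49 for EFNA1, 1.37 ± 0.680 for EPHA4 and 0.529 ± 0.308 for EPHB2 (SD, n = 3 each). Undivided, the DMSO levels of these transcripts were 20.8 CPM for EFNB1, 12.01 for EPHB4, 8.74 for EPHA4, 5.72 for EPHB2 and 4.15 for EFNA1. EFNB1 was the highest of these transcripts in the DMSO group on both scales, but summed over transcripts EPHB4 (48.6 CPM) and EPHA4 (27.2 CPM) were above EFNB1.

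The rest of the family was examined as 12 further genes. EFNA5, a lipid-anchored ephrin that binds EPHA4 among other receptors, was the only one that passed the filter. Its summed counts were 65, 43 and 31 with SGC-CLK-1 and 29, 34 and 20 with DMSO, or 97.5, 119 and 83.1 against 69.7, 65.0 and 53.6 CPM. The groups did not overlap, but the log2 fold change of 0.59 (SE 0.287) did not pass the threshold (edgeR, adjusted p = 0.386). EFNA4, another A-class ligand, was at 9, 1 and 2 counts against 8, 9 and 7, which is 13.5, 2.76 and 5.36 against 19.2, 17.2 and 18.8 CPM, and was too low to test. The receptor EPHB1 had 6, 5 and 4 counts against 3, 10 and 3. EPHA5 had 3, 0 and 4 against 0, 3 and 7. EPHA1, EPHA10 and EPHB6 had 1 count each, all with SGC-CLK-1, and EPHA6 and EPHA8 were not listed. EFNA2, EFNA3 and EFNB3 had pooled counts of 4, 3 and 3 with SGC-CLK-1 and 1 each with DMSO.

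Genes that act downstream of Eph receptors and ephrins were then compared. Together with the further family members these were 66 genes, of which 62 had a count and 32 passed the filter. None of the 32 passed the threshold by edgeR, the smallest adjusted p being 0.0888. At an unadjusted p under 0.05 there were 7, 2 higher and 5 lower, which is 21.9% of the 32, while 13.8% of all genes tested had such a p. In the 32 genes, 16 log2 fold changes were above 0 and 16 below. DESeq2 called 1 of them, CFL1. How many of all genes tested had groups without overlap was not counted. Where the groups of a single gene, here or above, are said not to overlap, this is therefore a description only.

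Among kinases, phosphatases and adaptors bound by Eph receptors, 19 of 20 genes had a count and 10 were tested. At an unadjusted p under 0.05, 1 was higher and 3 were lower, and the median log2 fold change was −0.52, beside 0.00066 over all genes tested. GRB2, an adaptor that links receptor tyrosine kinases to Ras, was at 387, 259 and 292 CPM with SGC-CLK-1 and 526, 468 and 475 CPM with DMSO. The groups did not overlap, and the log2 fold change was −0.71 (SE 0.208, edgeR adjusted p = 0.133). YES1, a Src-family kinase, was at 160, 237 and 225 CPM against 286, 283 and 284 CPM, a log2 fold change of −0.54 (SE 0.218, edgeR adjusted p = 0.283). ACP1, a low molecular weight phosphatase that acts on Eph receptors, had a log2 fold change of −0.49 (SE 0.214, edgeR adjusted p = 0.325). Its groups overlapped in CPM, but after TMM scaling every SGC-CLK-1 library was below every DMSO library. The gene above 0, PTK2 or focal adhesion kinase, named here after its value was seen, had a log2 fold change of 0.55 (SE 0.247, edgeR adjusted p = 0.337).

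Among small GTPases that act on actin, their exchange factors and their effectors, 19 of 20 genes had a count and 13 were tested, with a median log2 fold change of −0.02. At an unadjusted p under 0.05, 1 was higher and 2 were lower by edgeR. CFL1 encodes cofilin, which severs actin filaments. It was at 444, 333 and 330 CPM with SGC-CLK-1 and 656, 550 and 660 CPM with DMSO. The libraries of the groups did not overlap, and the log2 fold change was −0.82 (SE 0.203, edgeR adjusted p = 0.0888, DESeq2 adjusted p = 0.0112). CDC42, a small GTPase of filopodia, was at 2518, 2092 and 1796 CPM against 2983, 2371 and 3202 CPM, with overlapping groups and a log2 fold change of −0.49 (SE 0.192, edgeR adjusted p = 0.259). PAK1, a kinase activated by CDC42 and RAC1, was at 51.0, 88.2 and 40.2 CPM against 16.8, 30.6 and 32.2 CPM. Its groups did not overlap, and its log2 fold change was 1.07 (SE 0.435, edgeR adjusted p = 0.286).

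Genes of ephrin and receptor shedding, endocytosis and reverse signaling had a median size of log2 fold change of 0.27, against 0.55 for the kinases and adaptors, 0.48 for the small GTPase list and 0.32 over all genes tested. All 14 had a count and 8 were tested, with a median log2 fold change of 0.16 and none at an unadjusted p under 0.05 by edgeR. SDCBP, or syntenin, which binds the tail of B-class ephrins, was at −0.25 (SE 0.288, edgeR adjusted p = 0.768). ADAM17, a sheddase, was at 0.17 (SE 0.227, edgeR adjusted p = 0.801). These values are log2 fold changes.

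**Figure D5:**
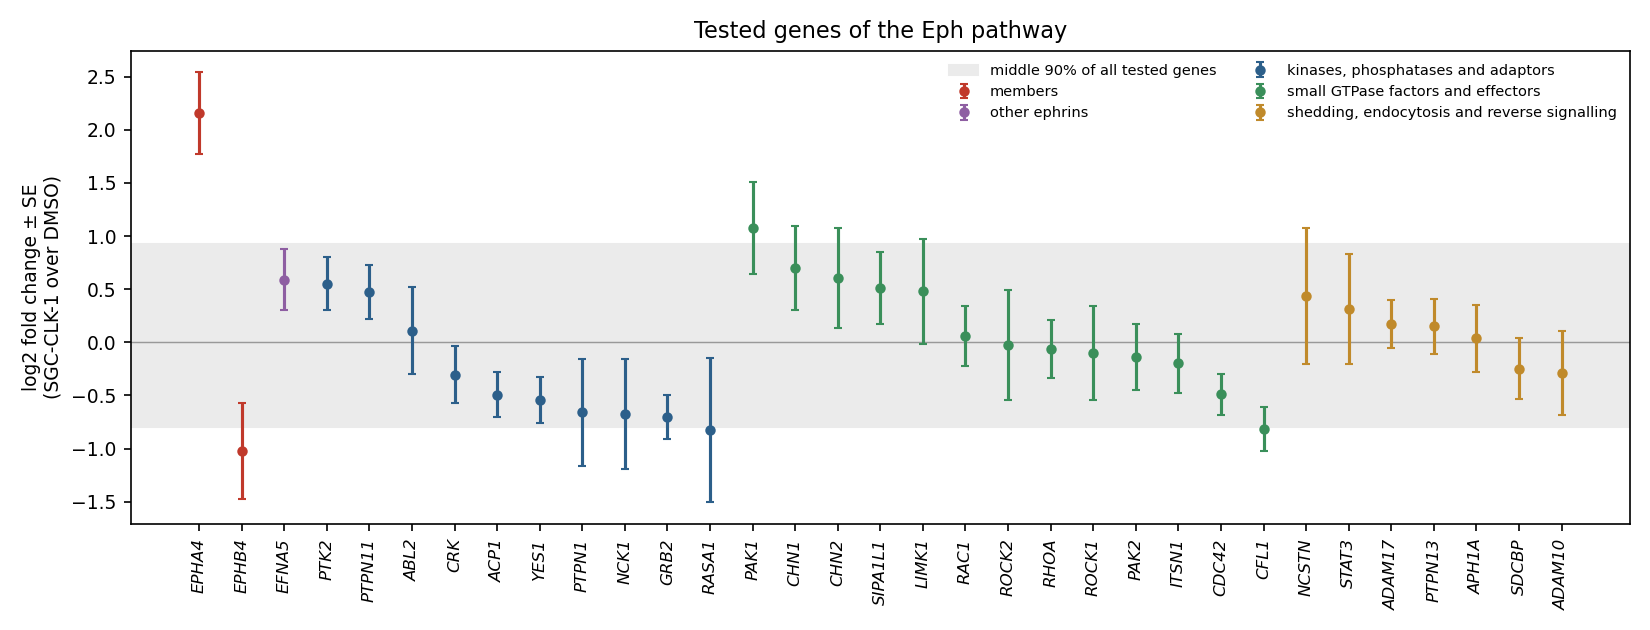
Log2 fold change with its standard error (vertical axis, SGC-CLK-1 over DMSO) of the members and pathway genes that passed the filter, 1 gene of the shedding list not being shown, colored by list, with the middle 90% of all tested genes shaded (−0.80 to 0.93). EPHA4, at 2.16, is the gene on which the set was chosen, so nothing is read from its place at the top. PAK1 at 1.07 is the highest gene outside the members, and most of the rest lie in the shaded band.

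To place the pattern of EPHA4 over the 6 libraries, tested genes outside the set were ordered by their Pearson correlation with EPHA4. Both correlations given here use log2 CPM after scaling between libraries (TMM). The first 5 were UBE4A (Pearson 0.996, Spearman 1), SLBP (0.991 and 1), ACVR2B (0.989 and 0.829), SUPT7L (0.989 and 1) and PRKDC (0.988 and 0.943). The points are 6 libraries that share treatment groups and depth, and the genes were picked as the highest of all genes tested, so the values are a description only. UBE4A, which encodes a ubiquitin chain assembly factor, was at 497, 581 and 525 CPM with SGC-CLK-1 and 262, 361 and 260 CPM with DMSO. In both genes SGC-CLK-1 replicate 2 was the highest library and DMSO replicate 2 the highest control. The log2 fold changes of the 5 genes lay between 0.51 and 0.80, below that of EPHA4.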

How the data were processed

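Per the paper's methods, the authors called bases with Guppy, mapped reads to hg38 Ensembl 98 transcripts with minimap2 (version 2.22 in the submitters' notes), kept up to 3 secondary alignments and collapsed UMIs. The deposited values are raw UMI counts per transcript, not normalized, 1 file per library. Whether the files come from UMI-tools or from homotrimer correction is not given in the sources used here. Transcripts absent from a library's file were set to 0.

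Of 93530 transcripts, 92.3% matched GENCODE release 44 by identifier without version. Counts were summed by gene symbol, and between 92.5% and 93.4% of a library's counts had a gene. Fits were made by edgeR 4.0.16 under R 4.3.3 (low counts removed by filterByExpr, minimum count 10 and minimum total 15, TMM scaling, quasi-likelihood test, Benjamini-Hochberg over all tested features, threshold 0.05). DESeq2 1.42.0 was an alternative. Scripts were tested on simulated data with large changes planted in features of higher count. The simulated spread was near that of the transcripts (biological coefficient of variation 0.169) and below that of the genes (0.244). The check was thus easier than the gene fits and does not measure how well smaller changes or low counts are recovered. Exact intervals used scipy 1.17.1 and cover counting error only, at 95%. Same-group libraries differed beyond sampling noise, with a chi-square per degree of freedom of 1.38 to 3.02.

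All 10 members were named, with any pathway gene past the threshold or otherwise the 3 with the smallest p in each list, and the 5 genes most correlated with EPHA4. Members and lists were chosen with earlier results of these data known. A table with 4 columns of other cells and the reports on molecular identifiers were not used here. Direction rests on the labels alone. Of the genes this rule names, 1 of the shedding list is not reported here, but it is counted in that list's summary.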

Additional observations from a re-analysis of the deposited data

How the results depend on the processing

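The log2 fold change of the EPHA4 sum lay between 1.84 and 2.80 over 12 alternatives (main value 2.16), the extremes being without DMSO replicate 1 and without DMSO replicate 2, and it was called in 7 of them. The 3 EPHA4 transcripts stayed between 1.93 and 3.21 over 11 alternatives each. ENST00000409854 lost its call without SGC-CLK-1 replicate 2, and ENST00000409938 without that library or without DMSO replicate 1. With at least 10 counts in every library, EPHA4 and EPHB4 were dropped and gave no value. EPHB4 stayed below 0, from −1.32 to −0.68, over 11 alternatives added after seeing the data. Members too low to judge, 8 in the main analysis, numbered 7 with a minimum count of 5, 9 with 20 and 9 by the most abundant transcript, the last added after seeing the data. The difference in the share of ENST00000281821 was −0.906 percentage points, −6.92 points over the tested transcripts alone, and −2.99 to 1.18 when 1 library was left out.

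The main analysis called 310 transcripts and 20 genes. Separate fits called 173 and 64 with at least 10 counts in every library, 162 and 169 without a filter, and 98 and 112 by DESeq2. The genes split into 40 higher and 72 lower by DESeq2. The most abundant transcript of each gene gave 147 genes, 62 higher and 85 lower. Leaving out 1 library gave 81 to 363 transcripts and 1 to 21 genes, the lowest 81 without SGC-CLK-1 replicate 2. Scaling by library size alone gave 165 transcripts higher and 130 lower, beside 145 and 165. CFL1 was the pathway gene called by DESeq2, by the most abundant transcript (adjusted p = 0.0357) and without a filter (adjusted p = 0.0427), 1 gene in each, and no pathway gene passed in the other 10 alternatives. The causes of these differences were not tested.

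Deviations from the group mean in same-numbered libraries had correlations of 0.0589, 0.0929 and −0.00184. Between libraries of different numbers they ran from −0.123 to 0.0672. Values this near 0 at low counts cannot settle whether the libraries were paired. The main analysis took them as unpaired. With the replicate block, 427 transcripts and 36 genes were called, beside 310 and 20 without it. With it, 0 pathway genes passed and the EPHA4 log2 fold change was 2.27.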
